A study of Mus musculus with 26 samples.

Results

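Interferon-stimulated genes are described here as a named group of 41 genes among the 45318 genes of the RNA-seq count tables. The 41 were listed by symbol for their known roles, as STAT and IRF factors, nucleic acid sensors and antiviral effectors. No value of these libraries entered the rule, but earlier results of these data were known when the list was chosen. The tables hold 9 libraries of polyadenylated RNA from 4T1, a mouse triple-negative mammary carcinoma line of BALB/c origin, grown in serum with no treatment. There were 2 control libraries, labelled wild type, and the control cells of the study received an sgRNA against Renilla luciferase. There were 3 libraries of KO1 and 4 of KO2, labelled MaTAR25-/-, which are single-cell-sorted clones in which CRISPR/Cas9 removed the start of the gene for the long noncoding RNA MaTAR25. Each knockout is 1 clone, so an effect of the deletion and a difference of that clone from other 4T1 cells cannot be told apart. The paper describes control clones as well, chosen for MaTAR25 levels near those of the parental line. The labels do not say which control cells the 2 libraries came from. A change shared by both knockouts and a trait of these control cells therefore cannot be told apart. Nothing states that the libraries of a group came from separate cultures, so the p-values measure the spread between these libraries, which may be technical. Where both clones are taken as 1 group, that spread also holds the difference between the clones. The 7 knockout libraries of that group stand for only 2 clones.

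Interferons are secreted proteins that cells release when they sense foreign or misplaced nucleic acid. Binding of a type I interferon to its receptor activates JAK kinases, and STAT and IRF9 proteins then enter the nucleus and bind a short DNA element, the interferon-stimulated response element (ISRE), near the genes they switch on. The products block virus replication, and many of the sensors and factors of the pathway are induced as well, so that the response feeds itself. Tumour cells can keep a low level of this response without added interferon.

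The ISRE is the sequence feature that the group is known for, and it was looked for as the letters GAAANNGAAA or TTTCNNTTTC, which are the same element read on either strand. The RefSeq promoter table for GRCm38.p6, which gives 250 bases before and 50 after a start, held 32 of the 41 genes, and 16 of the 32 had the letters, against 3.99% of the 27025 genes of the whole table. The letters TTCNNNGAA of the interferon-gamma activated site, which read the same on both strands, were in 9 of the 32 (28.1%) and in 9.55% of all genes. The 6 stretches below are printed because they belong to the genes with these ISRE letters whose called fold changes were largest. Capitals mark every ISRE match, with 15 bases shown on each side, and each stretch is written 5′ to 3′ on the strand of its gene. They lie, in GRCm38.p6, as Rsad2 at chr12:26456548-26456587 on the minus strand, Ifit3 at chr19:34583358-34583431 on the plus strand, Oas3 at chr5:120777710-120777749 on the minus strand, Oas1a at chr5:120907515-120907560 on the minus strand, Ifit1 at chr19:34640770-34640828 on the plus strand, Gbp3 at chr3:142559984-142560029 on the plus strand.
Rsad2: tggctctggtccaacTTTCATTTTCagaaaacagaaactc
Ifit3: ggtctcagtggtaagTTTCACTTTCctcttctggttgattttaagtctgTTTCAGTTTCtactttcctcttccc
Oas3: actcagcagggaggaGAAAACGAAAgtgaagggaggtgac
Oas1a: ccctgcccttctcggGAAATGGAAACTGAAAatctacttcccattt
Ifit1: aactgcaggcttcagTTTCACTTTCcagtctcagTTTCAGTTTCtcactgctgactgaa
Gbp3: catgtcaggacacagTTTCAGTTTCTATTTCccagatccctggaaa

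In Oas1a and Gbp3 the capitals run together because a pair of matches overlap, and in Ifit1 and Ifit3 there are 2 separate matches. A match is a description of the letters in this window and was not tested for binding.

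The 9 libraries held 25367211 to 61110585 reads counted on genes, and all values below are CPM, read counts scaled to a common total, over TMM-scaled library sizes. The targeted RNA, MaTAR25, was counted 35 and 30 times in the wild type libraries but 2, 7 and 0 times in KO1 and 11, 1, 9 and 6 times in KO2. Epithelial markers were abundant, and the 7 listed summed to 3295 to 3439 CPM in control, 3106 to 4295 in KO1 and 1605 to 3080 in KO2. Every KO2 library was thus below every other library by this sum. Of the 7, Cdh1 was called lower over both clones and in KO2, and Krt8 higher in KO1. Krt8, Krt14 and Cldn3 were called lower in KO2 than in KO1. Of 8 leukocyte markers, Adgre1 had no counts at all, Cd3e, Itgam and Lyz2 had at most 4 counts in any library, and Ptprc, the pan-leukocyte marker, reached 0.904 CPM at most. The summed leukocyte list lay at 16.3 to 16.9 CPM in control, 34.4 to 51.5 in KO1 and 5.60 to 29.3 in KO2, most of it Cd68, Csf1r and Cd74, the chain that guides class II molecules of antigen presentation. Cd68 and Cd74 were called higher in KO1 and Cd74 lower in KO2. Against KO1, KO2 had Cd74 lower and Ptprc higher. Of 5 fibroblast markers, Col1a1 was called lower over both clones and in each clone. Of 3 endothelial markers, Cdh5 was called higher in KO2 than in control and in KO1. The endothelial list summed to at most 1.56 CPM in any library. KO1 replicate 1 was the most deeply sequenced library and KO2 replicate 2 the shallowest, and the part of depth in the results was not tested. In bulk RNA, fewer cells that express a gene and less of its RNA per cell cannot be told apart.

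The 3 groups of libraries were first compared by the median of the 41 genes, each set as a log2 ratio to its mean in control with a pseudocount of 0.5 CPM. In the control libraries these medians were -0.13 and 0.12. In KO1 they were 1.11, 0.46 and 0.25, and in KO2 they were -1.38, -1.52, -1.16 and -0.58. The same median over all 15023 tested genes lay between -0.03 and 0.00 in every library. Thus each KO1 library lay above both control libraries and each KO2 library below them by this median.

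**Figure D1:**
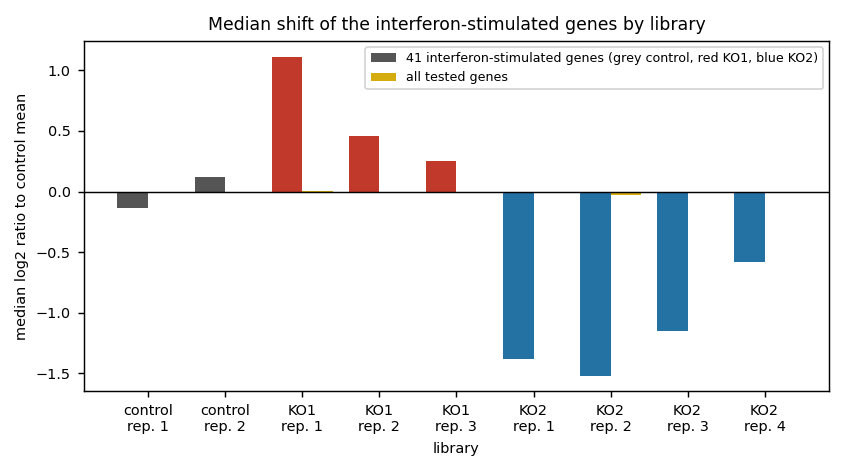
For each of the 9 libraries (horizontal axis), the median log2 ratio to the control mean (vertical axis, no unit) over the 41 interferon-stimulated genes (grey, red and blue bars) and over all 15023 tested genes (yellow bars, close to 0). The bars of the 41 genes rise to 1.11 in KO1 replicate 1 and fall to -1.52 in KO2 replicate 2.

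Single libraries differed within each clone. KO1 replicate 1 was the highest of all 9 libraries for 29 of the 41 genes, and KO1 replicate 3 was the lowest of its clone for 31. Of the 41 genes, 34, 27 and 23 were above both control libraries in KO1 replicates 1, 2 and 3, while 5, 9 and 15 were below both. In KO2, 36, 36, 34 and 30 genes were below both control libraries in replicates 1 to 4, and only 4, 3, 3 and 6 above. KO2 replicates 1, 2 and 3 were the lowest of all libraries for 17, 14 and 7 genes, and KO2 replicate 4 was the highest of its clone for 23. Between the 2 control libraries, replicate 2 had the higher level for 36 of the 41 genes.

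**Figure D2:**
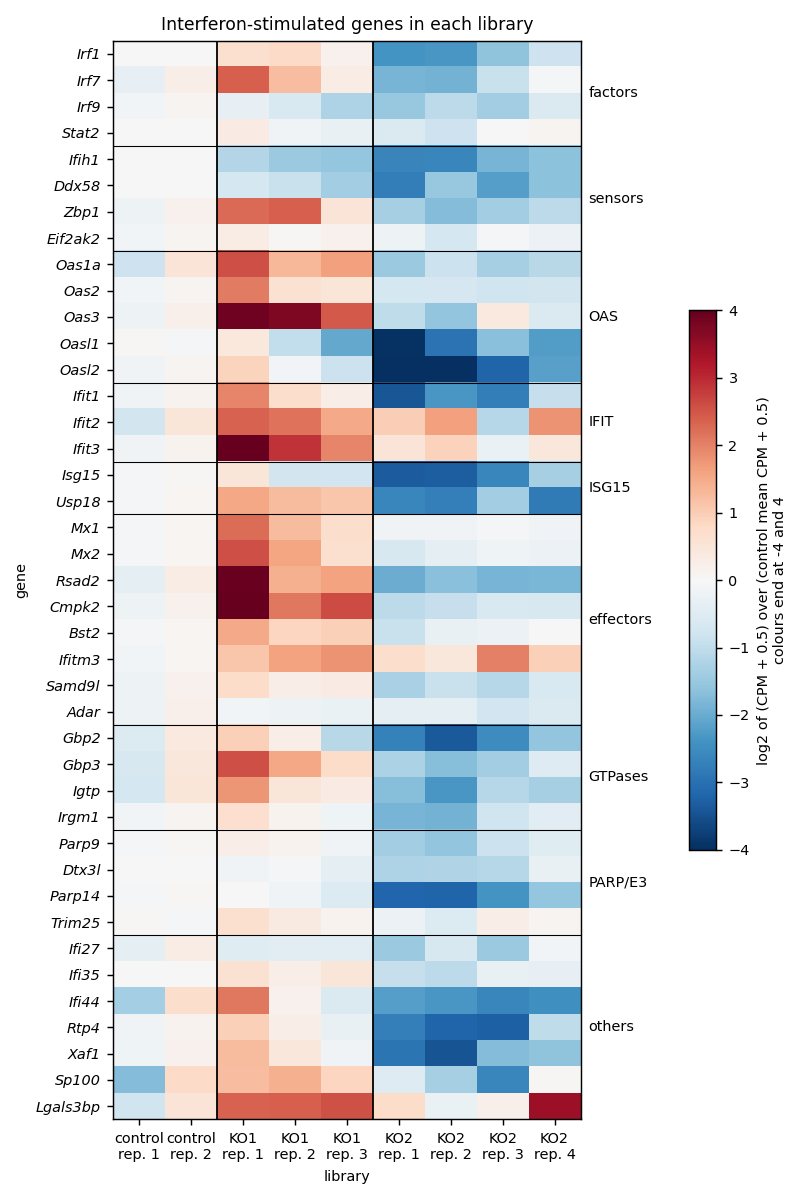
Colour map of the 41 interferon-stimulated genes (rows, grouped by role) in the 9 libraries (columns), as log2 of the ratio of CPM to the control mean with 0.5 added to both, with colours ending at -4 and 4. Most rows are red in KO1, deepest in replicate 1, and blue in KO2, palest in replicate 4, while Ifih1, Ddx58 and Irf9 are blue in both clones and Ifitm3 is red in both.

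All 41 genes passed the filter on low counts and entered the tests, which were edgeR's quasi-likelihood tests with Benjamini-Hochberg adjustment over all 15023 tested genes and a threshold of 0.1. With the 7 knockout libraries taken as 1 group against control, 4 of the 41 were called, Ifitm3 as higher and Ifih1, Ddx58 and Irf9 as lower. Of all tested genes 11.9% were called higher and 10.7% lower in that comparison, so the group held fewer calls than the background. The median log2 fold change of the 41 was -0.02, and that of all tested genes 0.06. These 4 calls depended on each of the 2 control libraries. The median log2 fold change of the 41 was -0.15 without control replicate 1 and 0.11 without control replicate 2. DESeq2 on all libraries called 7 of the 41 and 4221 of all tested genes, where edgeR called 3392. With the mean of the clones in the 3-group fit, 9 of the 41 and 4970 of all tested genes were called.

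The clones taken apart went in different directions. In KO1, 13 of the 41 genes (31.7%) were higher than in control and 2 (4.88%) lower, against 15.9% and 15.7% of all tested genes, and the median log2 fold change was 0.68. In KO2, 1 gene (2.44%) was higher and 25 (61.0%) lower, against 16.5% and 15% of all tested genes, with a median of -1.46. The medians over all genes in these comparisons were 0.02 and 0.03. Both comparisons use the same 2 control libraries, so their calls are not independent of each other. Libraries did not overlap with control, on the higher side, for 22 genes in KO1 (33.2% of all tested genes were so), and on the lower side for 27 genes in KO2 (24.1%). The higher calls in KO1 lay mostly in genes that were low in control. Of the 14 genes with a control mean under 5 CPM, 10 were called higher in KO1, with a median log2 fold change of 2.28. Of the 27 other genes, 3 were called higher and 2 lower, with a median of 0.26. In KO2 the low genes had 7 lower calls and a median of -1.90. The 27 others had 18 lower calls and -1.11. These classes were set by the control values themselves, so they are a description.

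Of the 41 genes, 27 had a positive log2 fold change in KO1 and a negative one in KO2, 10 were negative in both and 4 positive in both. Cmpk2, Oas1a, Oas2, Rsad2 and Zbp1 were called higher in KO1 and lower in KO2. With only 2 control libraries, the number of calls in each clone depended on each of them. Without control replicate 1 or 2, the calls fell from 15 to 1 and 5 in KO1 and from 26 to 12 and 7 in KO2. The 13 higher calls in KO1 fell to 0 and 4, so that without control replicate 1 the 1 gene still called, Ifih1, was a lower one, with 7 of the 41 at an unadjusted p under 0.05. The calls left in KO2 were all lower. The calls over all genes fell from 4750 to 1482 and 1764 and from 4724 to 1366 and 1456. The median of the 41 kept its sign in both cases, at 0.49 and 0.88 in KO1 and at -1.79 and -0.99 in KO2.

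KO2 against KO1 tests the difference between the clones itself and does not use the control levels. All 41 genes had a lower fitted level in KO2 than in KO1, and 30 (73.2%) were called lower, against 9.43% of all tested genes. None was called higher by edgeR, with 0 of the 41 at an unadjusted p under 0.05 in that direction and 0 by DESeq2, which called 33 lower, and 10.2% of all tested genes were called higher. The median log2 difference of the 41 was -2.28, beside 0.02 over all genes. For 32 genes every KO2 library lay below every KO1 library, which was so for 12.6% of all tested genes. Leaving out each KO1 and KO2 library in turn gave 22 to 34 calls, all lower, and 22 genes were called under each of these 7 settings. Of all tested genes 5.79% to 27.5% were called in either direction under these settings. The control libraries enter this fit through the shared spread, and without both of them 28 genes were called, again all lower. Over all genes 1932 of 14166 were then called. The fewest calls of the 41, 22, were left without KO1 replicate 1, where calls over all genes fell from 2944 to 1424. Over all genes the fewest calls, 874, were left without KO1 replicate 2.

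**Figure D3:**
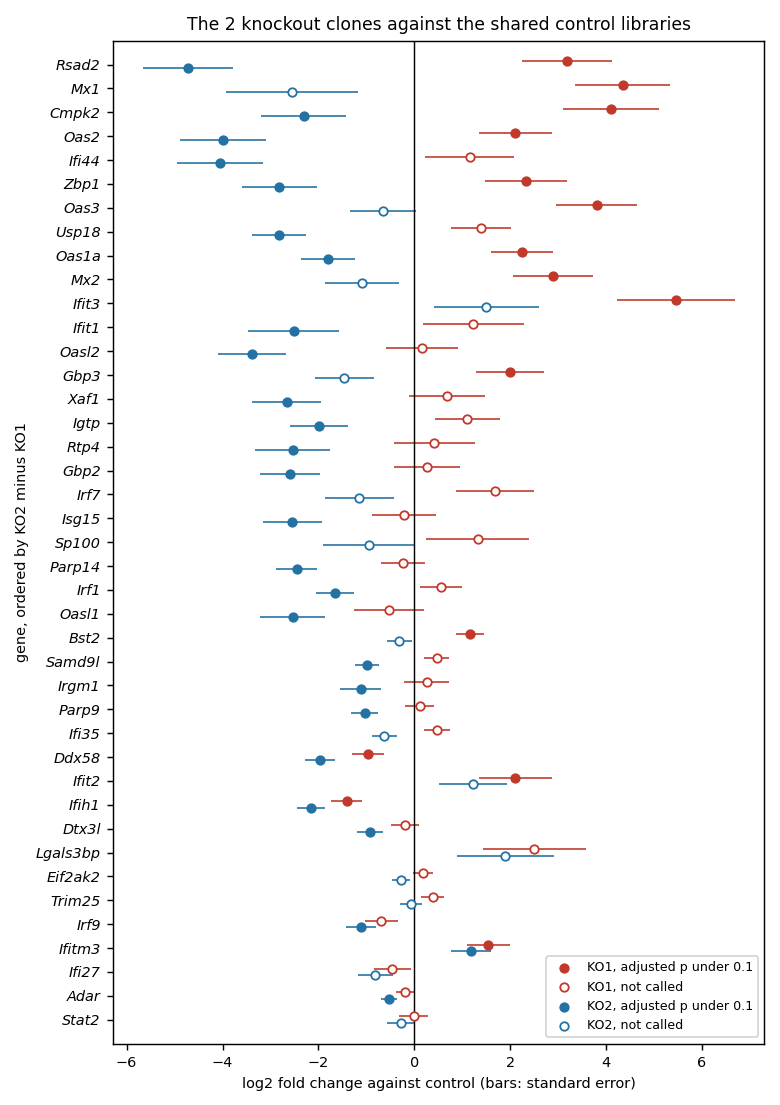
Log2 fold change against the shared control libraries (horizontal axis, bars are standard errors) of the 41 interferon-stimulated genes (vertical axis, ordered by the difference of the clones) in KO1 (red) and KO2 (blue), with filled points for an adjusted p under 0.1. The KO1 point lies to the right of the KO2 point for all 41 genes, and the distance runs from 0.27 for Stat2 to 7.90 for Rsad2.

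Among the factors, Irf1, a transcription factor that drives interferon genes and antigen presentation, had 91.8 and 88.9 CPM in control, 142, 153 and 102 in KO1 and 16.7, 17.6, 29.1 and 51.1 in KO2. The 3 groups did not overlap, with KO1 highest and KO2 lowest. The log2 fold changes were 0.55 ± 0.43 in KO1 and -1.65 ± 0.39 in KO2 (adjusted p = 0.387 and 0.0167) by edgeR, and KO2 differed from KO1 by -2.21 ± 0.36 (adjusted p = 0.00889). Irf7, the factor that amplifies type I interferon production, had 3.18 and 5.06 CPM in control, 23.8, 10.4 and 5.19 in KO1 and 0.781, 0.758, 1.97 and 3.86 in KO2. KO1 replicate 1 stood far above the other libraries, and KO2 replicate 4 lay within the control range. Irf7 was not called against control in either clone, and KO2 was below KO1 by -2.82 ± 0.66 (adjusted p = 0.0277).

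Irf9, the DNA-binding part of the factor that recognises the ISRE, had 27.5 and 31.8 CPM in control, 23.4, 19.5 and 12.4 in KO1 and 10.1, 13.9, 11.1 and 19.7 in KO2. All 7 knockout libraries were below both control libraries. Its log2 fold change was -0.91 ± 0.31 over both clones (adjusted p = 0.076), with -0.69 ± 0.34 in KO1 and -1.11 ± 0.31 in KO2 (adjusted p = 0.171 and 0.0328). Stat2, the partner of IRF9 in that factor, lay between 19.4 and 44.1 CPM in all libraries, with the 3 groups overlapping, and was called in no comparison. Irf9 shares exon bases with Rnf31 on the same strand, so its counts are uncertain to that extent.

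Of the RNA sensors, Ifih1 and Ddx58 were called lower than control in both clones. Ifih1 (chr2:62595798-62646255 on the minus strand, GRCm38) encodes MDA5, which binds long double-stranded RNA, and had 57.3 and 59.4 CPM in control. It had 25.5, 20.7 and 19.4 CPM in KO1 and 8.95, 9.22, 15.7 and 18.5 in KO2. The groups did not overlap, and every KO2 library lay below every KO1 library, although the difference of the clones was not called (-0.74 ± 0.27, adjusted p = 0.101). The log2 fold change was -1.79 ± 0.34 over both clones (adjusted p = 0.00847, edgeR), with -1.41 ± 0.32 in KO1 and -2.15 ± 0.29 in KO2 (adjusted p = 0.0128 and 0.00186). Ifih1 was the one gene of the 41 called in KO1 and in KO2 against control under every leave-out of a library of the groups compared.

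Ddx58 (chr4:40203773-40239828 on the minus strand) encodes RIG-I, the sensor of short RNA with a 5′ triphosphate, and had 124 and 128 CPM in control, 77.1, 68.0 and 47.9 in KO1 and 18.2, 43.5, 26.8 and 39.6 in KO2. It too was in order control, KO1, KO2 with no overlap. Its log2 fold change was -1.45 ± 0.41 over both clones (adjusted p = 0.0401), with -0.96 ± 0.34 in KO1 and -1.97 ± 0.31 in KO2 (adjusted p = 0.0667 and 0.00343). KO2 was lower than KO1 by -1.01 ± 0.28 (adjusted p = 0.0506). The call in KO1 was lost without control replicate 1, control replicate 2, KO1 replicate 2 or KO1 replicate 3.

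The other 2 sensors did not follow. Zbp1, which binds Z-form nucleic acid and can start cell death, had 0.965 and 1.37 CPM in control, 7.47, 8.22 and 1.87 in KO1 and 0.167, 0, 0.136 and 0.306 in KO2. The 3 groups did not overlap, and KO1 replicate 3 was close to control. The log2 fold changes of Zbp1 were 2.32 ± 0.86 in KO1 and -2.82 ± 0.78 in KO2 (adjusted p = 0.0799 and 0.0308), and the clones differed by -5.14 ± 0.76 (adjusted p = 0.006). Eif2ak2, the kinase PKR that stops translation on double-stranded RNA, stayed between 32.0 and 64.8 CPM in the 9 libraries and was called in no comparison. Every KO2 library still lay below every KO1 library for it (-0.46 ± 0.17, adjusted p = 0.105 by edgeR).

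**Figure D4:**
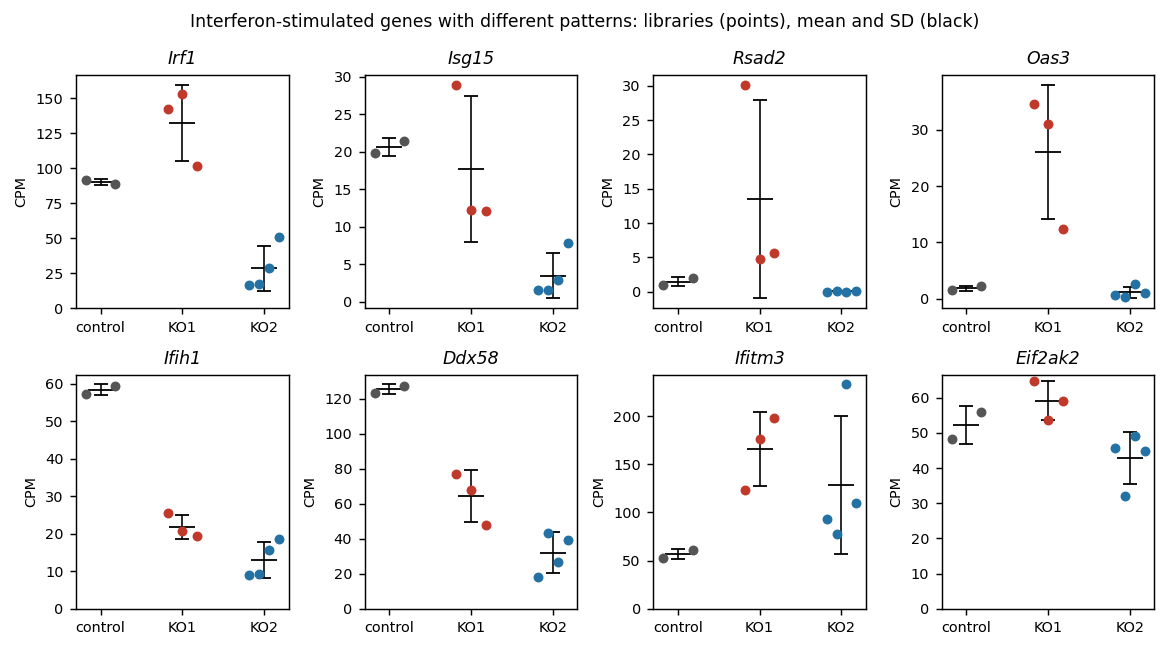
CPM (vertical axes, linear, each panel with its own scale) of 8 interferon-stimulated genes in the control, KO1 and KO2 libraries (points), with group means and standard deviations in black (n = 2, 3 and 4). Irf1, Isg15 and Rsad2 are lowest in KO2, Oas3 is high only in the 3 KO1 libraries (12.4 to 34.6 CPM), Ifih1 and Ddx58 step down from control over KO1 to KO2, Ifitm3 is above control in all 7 knockout libraries, and Eif2ak2 stays within 32.0 to 64.8 CPM.

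The oligoadenylate synthetases make the messenger that activates RNase L. Oas1a, Oas2 and Oas3 lie together within 177 kb at chr5:120730333-120907521, and Oasl1 and Oasl2 lie within 41 kb at chr5:114896936-114937915. Oas3 had 1.54 and 2.20 CPM in control, 34.6, 31.1 and 12.4 in KO1 and 0.669, 0.295, 2.58 and 1.08 in KO2. All KO1 libraries stood above all others, and KO2 overlapped with control. Its log2 fold changes were 3.80 ± 0.84 in KO1 and -0.66 ± 0.68 in KO2 (adjusted p = 0.0123 and 0.515), and the difference of the clones was -4.46 ± 0.65 (adjusted p = 0.00559).

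Oas1a had 0.79 and 2.74 CPM in control, 13.1, 5.24 and 6.54 in KO1 and 0.307, 0.758, 0.407 and 0.552 in KO2. KO1 was above and KO2 below control with no overlap. The fold changes on the log2 scale were 2.24 ± 0.65 in KO1 and -1.81 ± 0.57 in KO2 (adjusted p = 0.0346 and 0.0465), with -4.05 ± 0.54 (adjusted p = 0.00446) between the clones. Oas1a belongs to a family of close copies, so its counts are uncertain. Oas2 averaged under 1 CPM, with 14 and 14 counts in control, 198, 25 and 26 in KO1 and 1, 1, 0 and 1 in KO2.

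The pair of OAS-like genes behaved differently from these. Oasl2, which encodes an OAS-like protein with ubiquitin-like domains, had 36.6 and 43.9 CPM in control, 75.4, 37.5 and 21.9 in KO1 and 1.09, 1.64, 3.89 and 8.58 in KO2. KO1 lay on both sides of control, and all 4 KO2 libraries were far below. The log2 fold changes of Oasl2 were 0.16 ± 0.75 in KO1 and -3.39 ± 0.70 in KO2 (adjusted p = 0.897 and 0.00989). Oasl1, a repressor of Irf7 translation, had 46.8 and 43.2 CPM in control, 59.8, 22.7 and 10.5 in KO1 and 2.45, 5.43, 13.9 and 9.17 in KO2. Here KO1 replicate 3 was lower than KO2 replicate 3, so the clones overlapped. The log2 fold change of Oasl1 in KO2 was -2.54 ± 0.68 (adjusted p = 0.0261).

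The IFIT proteins bind viral RNA that lacks the marks of host RNA, and Ifit2, Ifit3 and Ifit1 lie within 99.3 kb at chr19:34550694-34650009. Ifit3 was almost silent in control, at 0.0658 and 0.183 CPM, and had 10.0, 4.18 and 1.92 in KO1 and 0.39, 0.674, 0.0226 and 0.347 in KO2. The control values stand for 3 and 6 counts. KO1 was above all other libraries, and the KO2 libraries lay on both sides of control. Its log2 fold changes were 5.45 ± 1.23 in KO1 and 1.5 ± 1.10 in KO2 (adjusted p = 0.0135 and 0.35), and KO2 differed from KO1 by -3.95 ± 0.83 (adjusted p = 0.0201). A near copy, Ifit3b, makes the counts of Ifit3 uncertain.

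Ifit1 had 4.89 and 6.01 CPM in control, 22.5, 9.28 and 6.60 in KO1 and 0.0558, 0.674, 0.384 and 2.64 in KO2, so that the groups did not overlap. Its log2 fold changes were 1.23 ± 1.06 in KO1 and -2.51 ± 0.95 in KO2 (adjusted p = 0.431 and 0.0865), with -3.74 ± 0.91 (adjusted p = 0.0316) between the clones. Ifit2 went another way in KO2, at 21.6, 34.8, 4.61 and 38.5 CPM beside 6.23 and 15.2 in control and 56.6, 49.5 and 31.8 in KO1. KO2 replicate 3 was the lowest of all libraries, while the other 3 KO2 libraries were above control. Ifit2 was called only in KO1, where the log2 fold change was 2.11 ± 0.76 (adjusted p = 0.075).

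ISG15 is a ubiquitin-like protein that is joined to other proteins, and USP18 removes it and also dampens the type I receptor. Isg15 (chr4:156199424-156200818 on the minus strand) had 19.8 and 21.4 CPM in control, 28.8, 12.2 and 12.0 in KO1 and 1.59, 1.64, 2.94 and 7.85 in KO2. KO1 replicate 1 was above control and the other 2 KO1 libraries below it, while all of KO2 was lower. The log2 fold changes were -0.22 ± 0.66 in KO1 and -2.54 ± 0.61 in KO2 (adjusted p = 0.837 and 0.0178). Usp18 had 5.22 and 5.98 CPM in control, 17.2, 14.2 and 12.8 in KO1 and 0.502, 0.421, 1.83 and 0.368 in KO2, with no overlap between the 3 groups. Its log2 fold changes were 1.39 ± 0.63 in KO1 and -2.82 ± 0.57 in KO2 (adjusted p = 0.14 and 0.00856), and KO2 was below KO1 by -4.21 ± 0.55 (adjusted p = 0.00427).

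The enzymes that attach ISG15 to proteins were named after their values were seen. Uba7, the activating enzyme, had 7.39 and 11.8 CPM in control, 37.6, 28.0 and 29.2 in KO1 and 0.753, 0.463, 2.33 and 9.48 in KO2, and KO2 was lower than KO1 by -3.26 ± 0.84 (adjusted p = 0.0378). Ube2l6, the conjugating enzyme, had 4.87 and 7.90 CPM in control, 6.29, 6.27 and 7.06 in KO1 and 3.65, 1.98, 3.57 and 2.96 in KO2, and the clones differed by -1.10 ± 0.29 (adjusted p = 0.0424). Herc6, the mouse ligase for ISG15, had 18.8 and 23.7 CPM in control, 37.3, 25.7 and 21.4 in KO1 and 19.2, 17.3, 11.6 and 12.9 in KO2, and differed between the clones by -0.89 ± 0.25 (adjusted p = 0.0524). KO2 replicate 1 lay within the control range for Herc6, as did KO2 replicate 4 for Uba7, and all 3 genes were chosen for these values.

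Of the antiviral effectors, Rsad2 and Cmpk2 are neighbours, within 37.1 kb at chr12:26442746-26479837. Rsad2 encodes viperin, which makes a chain-terminating nucleotide from the product of CMPK2, and had 1.03 and 1.95 CPM in control, 30.1, 4.81 and 5.60 in KO1 and 0, 0.126, 0.0452 and 0.0613 in KO2. The KO2 values stand for 0, 3, 2 and 3 counts, and KO1 replicate 1 was far above the other KO1 libraries. Its log2 fold changes were 3.18 ± 0.94 in KO1 and -4.72 ± 0.94 in KO2 (adjusted p = 0.038 and 0.00848), and the difference of -7.90 ± 0.94 (adjusted p = 0.0031) between the clones was the largest of the 41. Cmpk2 had 0.395 and 0.671 CPM in control, 17.7, 3.95 and 5.76 in KO1 and 0, 0.0421, 0.181 and 0.163 in KO2. The 3 groups were apart for it as well, with log2 fold changes of 4.11 ± 1.00 in KO1 and -2.31 ± 0.88 in KO2 (adjusted p = 0.0178 and 0.0887).

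Mx1 and Mx2, dynamin-like GTPases that block virus particles, averaged under 1 CPM. Mx1 had 1 and 3 counts in control, 134, 25 and 15 in KO1 and 0, 0, 1 and 0 in KO2. Mx2 had 13 and 12 counts in control, 281, 60 and 29 in KO1 and 1, 3, 10 and 10 in KO2. For both, every KO1 library was above every other library, and both were called higher in KO1 and lower in KO2 than in KO1. The fitted fold changes of Mx1, Oas2 and Rsad2 in KO2 rest on so few counts that their size depends on the fit.

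Bst2, or tetherin, which holds budding viruses at the cell surface, had 34.7 and 38.4 CPM in control, 106, 66.6 and 72.0 in KO1 and 19.5, 29.8, 31.3 and 37.1 in KO2. KO1 was above control, and KO2 reached up into the control range. The log2 fold changes were 1.15 ± 0.29 in KO1 and -0.31 ± 0.26 in KO2 (adjusted p = 0.0205 and 0.419), with -1.47 ± 0.23 (adjusted p = 0.00788) between the clones. Samd9l, a translation inhibitor, had 25.9 and 33.8 CPM in control, 50.2, 36.2 and 37.2 in KO1 and 11.7, 16, 13.1 and 19.4 in KO2, again with no overlap of the groups. It was called in KO2 (-0.99 ± 0.24, adjusted p = 0.0187) and between the clones (-1.45 ± 0.22 (adjusted p = 0.00626)). Adar, the RNA-editing enzyme that marks double-stranded RNA as self, differed least of the called genes, with a log2 fold change of -0.52 ± 0.17 in KO2 (adjusted p = 0.0522).

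Ifitm3 (chr7:141009586-141010770 on the minus strand) encodes a membrane protein that stops virus entry and was the one gene of the 41 called higher in both clones. It had 53.2 and 60.7 CPM in control, 124, 177 and 198 in KO1 and 93.6, 77.4, 234 and 109.8 in KO2. All 7 knockout libraries were above both control libraries, with KO2 replicate 3 the highest. Its log2 fold change was 1.35 ± 0.42 over both clones (adjusted p = 0.0565), with 1.54 ± 0.44 in KO1 and 1.18 ± 0.42 in KO2 (adjusted p = 0.0334 and 0.0716). The clones themselves were not told apart (-0.37 ± 0.35 (adjusted p = 0.518)).

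The interferon-induced GTPases attack the vacuoles of microbes inside cells. Gbp3 and Gbp2 lie within 78.0 kb at chr3:142560026-142638008. Gbp2 had 9.94 and 19.9 CPM in control, 29.3, 17.9 and 6.57 in KO1 and 1.87, 1.01, 2.22 and 4.62 in KO2, with KO1 on both sides of control and KO2 below all. Its log2 fold change in KO2 was -2.60 ± 0.63 (adjusted p = 0.0176). Gbp3 had 1.67 and 4.12 CPM in control, 19.8, 9.45 and 5.14 in KO1 and 0.92, 0.547, 0.791 and 1.88 in KO2, and it was called in KO1 (1.99 ± 0.71, adjusted p = 0.0699). Between the clones Gbp2 differed by -2.87 ± 0.59 (adjusted p = 0.0185) and Gbp3 by -3.45 ± 0.58 (adjusted p = 0.00957).

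Igtp had 2.06 and 5.28 CPM in control, 13.6, 5.37 and 4.68 in KO1 and 0.781, 0.337, 1.38 and 1.14 in KO2, and Irgm1 had 24.6 and 29.1 CPM in control, 42.8, 29.9 and 23.5 in KO1 and 7.08, 6.95, 15.4 and 20.0 in KO2. Both were lower in all KO2 libraries than in any other. In KO2 the log2 fold changes were -1.99 ± 0.60 for Igtp (adjusted p = 0.042) and -1.12 ± 0.43 for Irgm1 (adjusted p = 0.0885). Igtp shares exon bases with Irgm2 on the same strand.

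Parp14, Dtx3l and Parp9 lie within 139.7 kb at chr16:35832874-35972605. PARP9 and the ubiquitin ligase DTX3L form a complex, and PARP14 adds ADP-ribose to proteins. Parp14 had 54.7 and 58.1 CPM in control, 56.7, 49.5 and 38.4 in KO1 and 5.80, 5.73, 10.3 and 19.2 in KO2. It was not called in KO1 (-0.23 ± 0.46, adjusted p = 0.755) and was lower in KO2 by a log2 fold change of -2.45 ± 0.42 (adjusted p = 0.00481). Parp9 had 41 and 43.4 CPM in control, 51.2, 46.8 and 38.4 in KO1 and 15.9, 13.8, 22.9 and 29.8 in KO2, and fell in KO2 with a log2 fold change of -1.03 ± 0.28 (adjusted p = 0.0287). For Dtx3l the values were 46.8 and 45.7 CPM in control, 42.0, 44.2 and 35.5 in KO1 and 19.3, 19.6, 20.8 and 37.8 in KO2, where replicate 4 stood apart from the other 3. Dtx3l and Parp9 share exon bases on opposite strands, and no source used here gives the strand setting of the counting, so their counts are uncertain. Trim25, the ligase that activates RIG-I, lay between 87.6 and 199 CPM in all libraries and was not called.

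Of the remaining 7 genes, Ifi44, Xaf1 and Rtp4 were lower in KO2 than in control and than in KO1. Ifi44 had 0.9 and 5.31 CPM in control, 15.1, 3.58 and 1.92 in KO1 and 0.279, 0.21, 0.0904 and 0.163 in KO2. The control libraries were far apart from each other, and all KO2 libraries lay below both. Its log2 fold change in KO2 was -4.06 ± 0.90 (adjusted p = 0.0128). Xaf1, a factor that counters the inhibitor of apoptosis XIAP, had 5.99 and 7.68 CPM in control, 17.1, 9.58 and 6.11 in KO1 and 0.474, 0.168, 1.70 and 1.88 in KO2, with a log2 fold change of -2.66 ± 0.72 in KO2 (adjusted p = 0.0278). Rtp4 had 7.83 and 9.67 CPM in control, 17.3, 10.6 and 7.03 in KO1 and 0.892, 0.505, 0.452 and 4.07 in KO2, with a log2 fold change of -2.54 ± 0.77 in KO2 (adjusted p = 0.042).

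Ifi35 had 21.2 and 22.1 CPM in control, 33.1, 26.2 and 30.8 in KO1 and 11.2, 10.2, 17.6 and 17.1 in KO2, and was called only between the clones (-1.10 ± 0.23 (adjusted p = 0.0192)). Ifi27, Sp100 and Lgals3bp were called in no comparison. Lgals3bp, a secreted glycoprotein, had 5.05 and 13.2 CPM in control, 48.6, 49.7 and 56.3 in KO1 and 15.6, 7.58, 10.6 and 102 in KO2, so that KO2 replicate 4 alone was above KO1. Sp100, a nuclear body protein, had 0.702 and 6.25 CPM in control, which is wider apart than most of the group, 8.95, 10.2 and 6.79 in KO1 and 2.26, 1.09, 0.158 and 3.6 in KO2. Ifi27 had 63.5 and 98.9 CPM in control, 58.5, 60.0 and 58.9 in KO1 and 28.5, 52.1, 28.8 and 75.1 in KO2. KO1 lay below both control libraries, and KO2 overlapped with both other groups.

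Per kilobase of exon, Ifitm3 was the most abundant of the 41 genes in control cells, with 84.0 CPM per kb, followed by Ifi27 with 55.4, Bst2 with 40.5 and Isg15 with 27.3. At the low end, Ifit3 had 0.0713 CPM per kb and Mx1 0.015.

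By promoter letters, the 16 genes with an ISRE match had median log2 fold changes of 1.13 in KO1, -1.63 in KO2 and -2.60 for KO2 minus KO1, and 9, 10 and 12 of them were called in either direction. Against the direction of these medians, Ifih1 and Ddx58 were called lower in KO1 and Ifitm3 higher in KO2. The 16 genes with no match in the window had 0.51, -1.05 and -1.73, with 2, 10 and 10 called. The 9 genes without an entry in the promoter table had larger medians than either class, 1.39, -2.54 and -3.99, with 4, 6 and 8 called. Of all tested genes 31.6%, 31.4% and 19.6% were called in either direction in these 3 comparisons. These values are descriptions with no test, and nothing is read from them about the element.

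The rest of the pathway was described by lists of 107 further genes, of which 92 were tested. The ligands were near 0. The 9 listed interferon genes had 19 counts in all 9 libraries together, with at most 4 counts for any gene in a library. Of the 6 receptor chains, Ifnlr1 and Il10rb were called lower in KO2 against control, and Ifnar2, Ifngr2 and Il10rb lower in KO2 than in KO1, where 15% and 9.43% of all tested genes were called lower. Counts in lists this small are descriptions.

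Ifnlr1, the chain particular to the receptor of type III interferons, had 32.1 and 40.0 CPM in control, 7.36, 16.7 and 14.8 in KO1 and 4.52, 2.57, 14.7 and 1.78 in KO2. All knockout libraries were below control, and its log2 fold change over both clones was -2.01 ± 0.68 (adjusted p = 0.0757). The type I receptor chains, chosen here after their values were seen, differed from each other. Ifnar1 stayed between 54.6 and 72.3 CPM and was called in no comparison. Ifnar2 had 15.5 and 21.8 CPM in control, 24.3, 44.2 and 26.5 in KO1 and 13.5, 14.8, 9.09 and 10.8 in KO2, and differed between the clones by -1.39 ± 0.27 (adjusted p = 0.0153).

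Of 14 signalling genes, 3 were called lower over both clones, where 10.7% of all tested genes were. Irf2, a factor that competes with IRF1, had 65.6 and 70.0 CPM in control and between 31.6 and 36.6 CPM in the 7 knockout libraries, which lay close together. Its log2 fold changes were -0.93 ± 0.15 in KO1 and -0.99 ± 0.14 in KO2 (adjusted p = 0.00328 and 0.00204). Irf5 had 5.53 and 4.21 CPM in control, 1.56, 2.95 and 1.00 in KO1 and 0.446, 0.968, 0.588 and 1.25 in KO2, with -1.96 ± 0.56 on the log2 scale over both clones (adjusted p = 0.0406). Jak1, the kinase shared by the interferon receptors, had 207 and 221 CPM in control, 125, 127 and 118 in KO1 and 144, 212, 108 and 139 in KO2, where replicate 2 was at the control level, and its log2 fold change over both clones was -0.63 ± 0.22 (adjusted p = 0.0865). Tmem173, which encodes STING and was chosen after its values were seen, had 28.5 and 26.0 CPM in control, 38.7, 34.3 and 41.4 in KO1 and 13.3, 11.8, 8.57 and 15.7 in KO2, and differed between the clones by -1.63 ± 0.21 (adjusted p = 0.00403). It was 1 of 4 signalling genes called lower in KO2 than in KO1, while 2, Irf8 and Traf3, were called higher. Of all tested genes 9.43% were called lower and 10.2% higher. Irf8 had 2.85 and 2.38 CPM in control, 0.494, 0.564 and 3.03 in KO1 and 28.1, 9.77, 6.04 and 6.13 in KO2.

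Among the nucleases that keep self nucleic acid low, the 3 subunits of RNase H2 were called higher over both clones, among 5 tested genes of that list and beside 11.9% of all tested genes. Rnaseh2c had 13.5 and 16.9 CPM in control, 45.5, 51.5 and 46.8 in KO1 and 26.0, 46.9, 31.5 and 23.2 in KO2, with a log2 fold change of 1.35 ± 0.35 (adjusted p = 0.0268). Rnaseh2a and Rnaseh2b had log2 fold changes of 0.55 ± 0.19 (adjusted p = 0.0808) and 0.66 ± 0.23 (adjusted p = 0.0818). None of the 3 was called between the clones, where the log2 differences were -0.59 ± 0.24, 0.01 ± 0.18 and -0.08 ± 0.21. Of 8 tested sensors that are not among the 41, 3 were called lower in KO2 than in KO1, among them Dhx58, and of 7 negative regulators only Ptpn2 was, where 9.43% of all tested genes were called lower.

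Of the 52 tested genes on the list of further interferon-induced genes, 15 were higher and 3 lower in KO1, 4 higher and 21 lower in KO2, and 1 higher and 34 lower in KO2 against KO1. Of all tested genes 15.9% and 15.7% were called higher and lower in KO1, 16.5% and 15% in KO2, and 10.2% and 9.43% in KO2 against KO1. Over both clones, the 3 largest called changes were in Slfn9, Ifitm2 and Nmi. Slfn9 had 18.2 and 22.7 CPM in control, 98.5, 112 and 110.0 in KO1 and 76.4, 63.4, 85.8 and 93.3 in KO2, with a log2 fold change of 2.16 ± 0.26 (adjusted p = 0.00151). Ifitm2, a close relative of Ifitm3 with which it may share reads, had 49.1 and 50.2 CPM in control, 119, 139.6 and 142 in KO1 and 96.6, 70.0, 153 and 117 in KO2, with 1.27 ± 0.28 (adjusted p = 0.0155). Nmi, a binding partner of IFI35, had 41.2 and 43.2 CPM in control, 25.3, 19.7 and 20.6 in KO1 and 16.5, 10.7, 16.1 and 18.6 in KO2, with -1.21 ± 0.26 (adjusted p = 0.013). In none of these 3 did any knockout library overlap with control.

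The ChIRP-seq peak lists, which give chromatin pulled down with oligos against MaTAR25, bear on the 41 genes as well. These lists are pooled over replicates and allow no test. In the even, odd and total pools of 4T1 cells, 20, 23 and 27 of the 41 genes were the nearest promoter of a peak (48.8, 56.1 and 65.9%), beside 52.9, 52.4 and 59.6% of all tested genes. In MMTV-Neu-NDL cells, mouse HER2-type mammary tumour cells, it was 26 of 41 (63.4%), beside 58.0%. The title and source labels of these samples name NDL cells while their genotype label names MMTV-PyMT, another mouse mammary tumour model, and the name used here follows the title. Peaks within 1000 bp of a start were near 5, 4, 7 and 8 of the 41 genes, where all tested genes gave 10.9, 10.1, 13.5 and 12.9%. The even list has no peak on chromosome 3, where Adar, Gbp2, Gbp3 and Ifi44 lie.

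The highest-scoring peaks of the 41 genes were in an intron of Oas3, at chr5:120762090-120762903 in the total pool of 4T1 cells, where the peak ranked 511 of 76806. In the even and odd pools and in the NDL cells the Oas3 peak ranked 1180 of 64607, 594 of 61311 and 1124 of 70329. Oas3 was high in KO1 and not called in KO2. Ifih1, Ddx58 and Irf9, which were called lower over both clones, had best ranks between 18674 and 71199 where they had a peak, and Ddx58 alone of these had one in every list.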

How the data were processed

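Counts of polyadenylated RNA reads per gene from 9 libraries, and 4 lists of ChIRP-seq peaks, were used. The deposited counts are raw whole numbers, which the authors made by mapping single-end reads to GRCm38 with STAR and counting on GENCODE vM5 genes with HTSeq. The table of KO2 replicate 2 repeats every gene 3 times with the same value, and 1 copy was kept. The deposited peak scores come from HOMER, which the authors ran on pooled replicates after Bowtie2 alignment, against a Ppib pulldown. No source used here gives their scaling, so scores were ranked within a list only. The table columns of the peak lists other than score, position and nearest promoter were not used.

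Counts were fitted in R 4.3.3 with edgeR 4.0.16 (TMM, filterByExpr, quasi-likelihood F test, Benjamini-Hochberg adjustment, threshold 0.1). The 7 knockout libraries were compared with control in a 2-group fit, and KO1, KO2 and their difference in a 3-group fit. Alternatives were DESeq2 1.42.0, RLE size factors, no filter, at least 10 counts in every library, a threshold of 0.05, the replicate block, only the libraries compared or the mean of the clones, and leaving out each library. The fits were tested on simulated counts.

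The 41 genes, the further lists and the tests were chosen with earlier results of these data known. By rule, every member was accounted for, members with at least 1 CPM on average were named, and of the other lists the 3 largest called changes over both clones were named. Positions and exon lengths are from GENCODE vM21, and 15 of the 41 genes share exon bases with another gene. Counts limit the precision of low genes, and 9 genes lacked an entry in the promoter table. A gene of the marker lists is not reported here and was left out of their sums.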

Additional observations from a re-analysis of the deposited data

Results flagged for a closer look

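The difference between the clones was itself tested, as KO2 against KO1, and 30 of the 41 genes passed with edgeR's quasi-likelihood test. On the log2 scale, KO2 minus KO1 was -7.90 for Rsad2, -6.89 for Mx1, -6.42 for Cmpk2, -6.09 for Oas2, -5.21 for Ifi44 and -5.14 for Zbp1. The values of Mx1 and Oas2 rest on 1 and 3 counts over the 4 KO2 libraries and depend on the fit. It was -4.46 for Oas3, -4.21 for Usp18, -4.05 for Oas1a, -3.99 for Mx2, -3.95 for Ifit3, -3.74 for Ifit1, -3.54 for Oasl2, -3.45 for Gbp3, -3.34 for Xaf1 and -3.09 for Igtp. It was -2.96 for Rtp4, -2.87 for Gbp2, -2.82 for Irf7, -2.32 for Isg15, -2.23 for Parp14, -2.21 for Irf1 and -2.0 for Oasl1. The smallest were -1.47 for Bst2, -1.45 for Samd9l, -1.38 for Irgm1, -1.14 for Parp9, -1.10 for Ifi35, -1.01 for Ddx58 and -0.73 for Dtx3l. Of the other pathway genes named for their calls over both clones, none passed in this comparison. That choice favours genes that are alike in the clones, so nothing is read from it. Of all 92 pathway genes tested, 4 were called higher and 46 lower in KO2 than in KO1. Of all tested genes 10.2% were called higher and 9.43% lower.

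Within the 4 KO2 libraries, 5 of the 41 genes had 1 library far from the other 3 by Dixon's test at 95%, where chance flags about 1 in 20 groups. KO2 replicate 4 stood apart with 102 CPM of Lgals3bp, 37.8 CPM of Dtx3l and 4.07 CPM of Rtp4. KO2 replicate 3 stood apart with 1.83 CPM of Usp18 and with 0.0226 CPM of Mx1, which is 1 count.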

How the results depend on the processing

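The direction of the 41 genes between the clones was the same with each KO1 or KO2 library left out, and the number of calls was not. Over both clones the 4 calls became 7 with DESeq2, 2 at a threshold of 0.05, 9 with the mean of the clones in the 3-group fit and 0 to 5 with a library left out. In KO1 the 15 calls became 7 with at least 10 counts in every library, where 28 of the 41 genes were tested, 25 with only the libraries compared and 1 to 13 with a library left out. In KO2 the 26 calls became 7 to 30, and in KO2 against KO1 the 30 became 18 with at least 10 counts and 22 to 34 with a library left out. Calls of the other pathway genes went from 13 to 7, 24 and 2 to 17 over both clones (threshold of 0.05, mean of the clones, library left out), and from 28 to 15, 50 and 5 to 19 in KO1 (threshold of 0.05, only the libraries compared, library left out). In KO2 they went from 38 to 11 to 42 with a library left out, and in KO2 against KO1 from 50 to 32 with at least 10 counts and to 26 to 55 with a library left out. With 1 control library left, that library is assumed to vary like the other groups. The calls over all tested genes moved as well. Over both clones they went from 3392 to 4221 with DESeq2, 2235 at a threshold of 0.05 and 4970 with the mean of the clones. In KO1 they went from 4750 of 15023 genes to 7752 of 14342 with only the libraries compared. With at least 10 counts they were 4156 of 11930 in KO1 and 2362 of 11930 in KO2 against KO1. In KO2 against KO1 that filter left 28 of the 41 genes and 73 of the other pathway genes to be tested.

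The replicate numbers did not pair the libraries, since same-numbered libraries had correlations of their deviations between -0.196 and 0.056. With the replicate block, 1 of the 41 genes and 8 of the pathway genes were called over both clones, and 15, 22 and 33 of the 41 in KO1, KO2 and KO2 against KO1.

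Signs changed only for values that were not called. Over both clones, the mean of the clones turned Ifit1 to -0.64, Oas2 to -0.94, Rsad2 to -0.77, Usp18 to -0.71, Zbp1 to -0.25, Igtp to -0.44 and Dhx58 to -0.34 on the log2 scale, in place of a positive value. Ifi44 turned to 0.0050 with no filter and 0.16 with the replicate block, Herc6 to 0.21 with the replicate block, Dhx58 to -0.015 with at least 10 counts, and Ube2l6 in KO1 to -0.057 with the replicate block. With a library left out, the log2 fold changes over both clones spanned -0.37 to 0.20 for Dhx58, -0.15 to 0.049 for Eif2ak2, -0.24 to 0.15 for Herc6, -0.20 to 0.061 for Ifi35, -1.57 to 1.77 for Ifi44, -0.73 to 0.37 for Ifit1, -0.018 to 0.049 for Ifnar1, -0.17 to 0.41 for Ifnar2, -0.68 to 0.93 for Igtp, -0.10 to 1.08 for Irf7, -0.45 to 1.18 for Oas2, -0.42 to 0.026 for Samd9l, -0.39 to 2.75 for Sp100 and -0.16 to 0.48 for Usp18. Those in KO1 spanned -0.37 to 0.031 for Adar, -0.28 to 0.86 for Gbp2, -0.17 to 2.94 for Ifi44, -0.35 to 0.21 for Il10rb, -0.0042 to 0.44 for Irgm1, -0.16 to 0.11 for Mavs, -0.44 to 0.49 for Oasl2, -0.22 to 0.12 for Stat2 and -0.26 to 0.43 for Ube2l6. In KO2 they spanned -0.067 to 0.003 for Ifnar1, -1.79 to 1.35 for Sp100 and -0.20 to 0.064 for Trim25, and in KO2 against KO1 -0.12 to 0.13 for Rnaseh2a and -0.21 to 0.035 for Rnaseh2b. DESeq2 gave no adjusted p for 6 values of these genes, which were left out.

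The depth of 25367211 to 61110585 counts a library limits genes such as Mx1 and Oas2, which had 0 or 1 count in the KO2 libraries. Whether KO1 and KO2 differ through the deletion or as clones cannot be told apart. The 2 control libraries, the unknown strand setting and close gene copies limit the other values.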
